A study of Mus musculus with 10 samples.

Results

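The genes described here are the 9 that encode the subunits of hypoxia-inducible factor (HIF) and the enzymes that turn its alpha subunits over. They were taken by symbol from the deposited gene table, where all 9 were found among 21956 listed genes, and all 9 were among the 13404 genes that passed the filter on low counts. They were measured in poly(A) RNA of gastrocnemius, a large calf muscle, from wild-type mice, in a Sham group of 5 samples and an HLI group of 5. The labels do not spell out HLI, which is read as hindlimb ischaemia, a reduced blood supply of the leg, with Sham as the control operation. The labels give no strain, age, sex or time after the operation. Whether each sample is its own animal is not stated either, and the p-values cover the spread among the samples alone, technical or not. In its title the series names FGF13 of endothelium and a loss of HIF-1α that does not depend on oxygen, and the question here is whether transcripts of the HIF system differ between ischaemic and Sham muscle.

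HIF is a heterodimer of an oxygen-regulated alpha subunit and a stable beta subunit. In the presence of oxygen, prolyl hydroxylases modify the alpha subunit, which is then bound by VHL, the substrate receptor of a ubiquitin ligase, and destroyed by the proteasome, while an asparaginyl hydroxylase blocks the binding of coactivators to the protein that remains. Low oxygen slows these enzymes, and the dimer then switches on genes of glycolysis, angiogenesis and oxygen supply, among them some of the prolyl hydroxylase genes themselves. Most of this regulation acts on protein, which was not measured here, and the values below are levels of mRNA.

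The bases before the start sites are shown for Hif1a, the alpha subunit with the largest difference between groups, and for Egln1 and Egln3, the pair of prolyl hydroxylase genes with the largest differences. RefSeq promoter sequences (GRCm38.p6) were matched by symbol for 8 of the 9 genes, all but Epas1. The 250 bases before each annotated start were searched on both strands for the core of the HIF binding site, which was taken as ACGTG and, with a different first base, as GCGTG. Capitals mark each match.
Hif1a, chr12:73907617-73907866, plus strand: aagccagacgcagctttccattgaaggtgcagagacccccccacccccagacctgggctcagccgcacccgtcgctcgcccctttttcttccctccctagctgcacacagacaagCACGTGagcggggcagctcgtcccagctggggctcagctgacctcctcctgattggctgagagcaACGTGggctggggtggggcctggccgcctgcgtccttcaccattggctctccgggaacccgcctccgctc
Egln1, chr8:124949255-124949504, minus strand: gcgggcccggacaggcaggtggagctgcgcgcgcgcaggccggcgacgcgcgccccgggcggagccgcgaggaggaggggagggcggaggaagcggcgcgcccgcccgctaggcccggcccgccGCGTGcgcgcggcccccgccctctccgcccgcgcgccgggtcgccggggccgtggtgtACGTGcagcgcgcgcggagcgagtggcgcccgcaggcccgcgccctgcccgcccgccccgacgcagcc
Egln3, chr12:54203875-54204124, minus strand: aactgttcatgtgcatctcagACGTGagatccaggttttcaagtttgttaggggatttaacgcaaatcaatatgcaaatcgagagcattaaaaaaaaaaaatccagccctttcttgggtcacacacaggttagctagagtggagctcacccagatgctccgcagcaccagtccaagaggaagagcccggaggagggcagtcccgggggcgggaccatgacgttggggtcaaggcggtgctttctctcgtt
In Egln1 the matches begin 126 and 68 bases before the start, and in Egln3 the match begins 229 bases before it. In Hif1a a palindrome, CACGTG, that is matched on both strands begins 135 bases before the start, and a second site begins 70 bases before it. Of 9 promoters listed for the 8 genes, 2 of them for Egln2, 7 held a match, and those of Vhl and Hif1an held none in this window. Over all 32851 promoters of the RefSeq table, 38.6% held at least one match. A match describes the letters and not a bound site, and the build named by the submitters is another one, so no deposited value is tied to these coordinates.

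The samples were close in depth, with summed estimated counts between 16556385 and 22136299, and all 90 counts of the 9 genes were whole numbers. In the GENCODE annotation of GRCm38, the antisense gene Gm15283 and Gm49321, a protein-coding gene on the strand of Hif1a, overlap Hif1a, and Cyp2t4, on the opposite strand, overlaps Egln2. The pseudogene Gm42672 on the strand of Arnt, AC096777.1 on the strand of Epas1, and 4833404L02Rik opposite Hif3a overlap these genes. Whether counting used strand is not given in the sources used here. Whether reads of opposite-strand pairs were told apart is therefore not known, and strand does not separate those on the same strand. Cyp2t4 was listed at 0 in every library. Gm15283, Gm49321, Gm42672, AC096777.1 and 4833404L02Rik are not among the listed genes, and to which gene any reads of theirs were counted is not known. The 14 fast fibre markers were above 0 in every library and summed to between 84273 and 167020 TPM (transcripts per 1000000, a level corrected for transcript length), so the tissue named in the labels was checked by its own markers. HLI replicate 3 stood apart from the other libraries in several of the genes below. It had the lowest summed fast fibre markers and the largest TMM scaling factor, 1.23 against 0.91 to 1.08 in the other 9 libraries, and values without it are given where they bear on a result.

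In Sham muscle, transcripts of 3 of the hydroxylases that restrain HIF, Egln1, Egln2 and Hif1an, stood above those of Hif1a, which encodes HIF-1α, in the same length-corrected unit. Egln1, which encodes PHD2, the main prolyl hydroxylase of HIF-1α, stood highest, at 102 ± 6.02 TPM (SD, n = 5). Epas1, which encodes HIF-2α, followed at 93.7 ± 10.6 TPM. The next were Egln2, which encodes PHD1, at 49.0 ± 4.32 TPM, and Hif1an, which encodes the asparaginyl hydroxylase FIH, at 46.7 ± 3.91 TPM. Arnt, which encodes the beta subunit HIF-1β, had 33.9 ± 2.16 TPM, and Egln3, which encodes PHD3, had 31.3 ± 3.996 TPM. Hif1a had 22.1 ± 11.3 TPM, Vhl 8.42 ± 0.96 TPM and Hif3a, which encodes an alpha subunit whose shorter forms can oppose the others, 0.22 ± 0.08 TPM. Among neighbours in this order, the ranges over the 5 Sham libraries overlapped between Egln1 and Epas1, Egln2 and Hif1an, Arnt and Egln3, and Egln3 and Hif1a. They did not overlap between Epas1 and Egln2, Hif1an and Arnt, Hif1a and Vhl, or Vhl and Hif3a.

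In HLI the order of mean TPM as deposited differed in its middle and at its top. With TPM scaled between libraries by median of ratios, 7 of the 9 places in the HLI order were kept, and 9 in the Sham order. Epas1 had 89.4 ± 11.7 TPM and Egln1 87.8 ± 13.2 TPM (SD, n = 5), with Egln1 the lower of the pair in 3 of 5 libraries. Hif1a had 35.8 ± 15.5 TPM and stood beside Arnt with 35.5 ± 3.25 TPM, and Egln3 had 26.5 ± 6.06 TPM. Ranges of neighbours overlapped from Egln2 down to Egln3, so the place of Hif1a in HLI is not separated from those of Hif1an and Arnt. The ranges of Hif1an, 41.0 to 47.5 TPM, and of Arnt, 30.3 to 38.9 TPM, did not overlap. Vhl, at 11.3 ± 2.94 TPM, and Hif3a, at 0.30 ± 0.13 TPM, remained last.

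**Figure D1:**
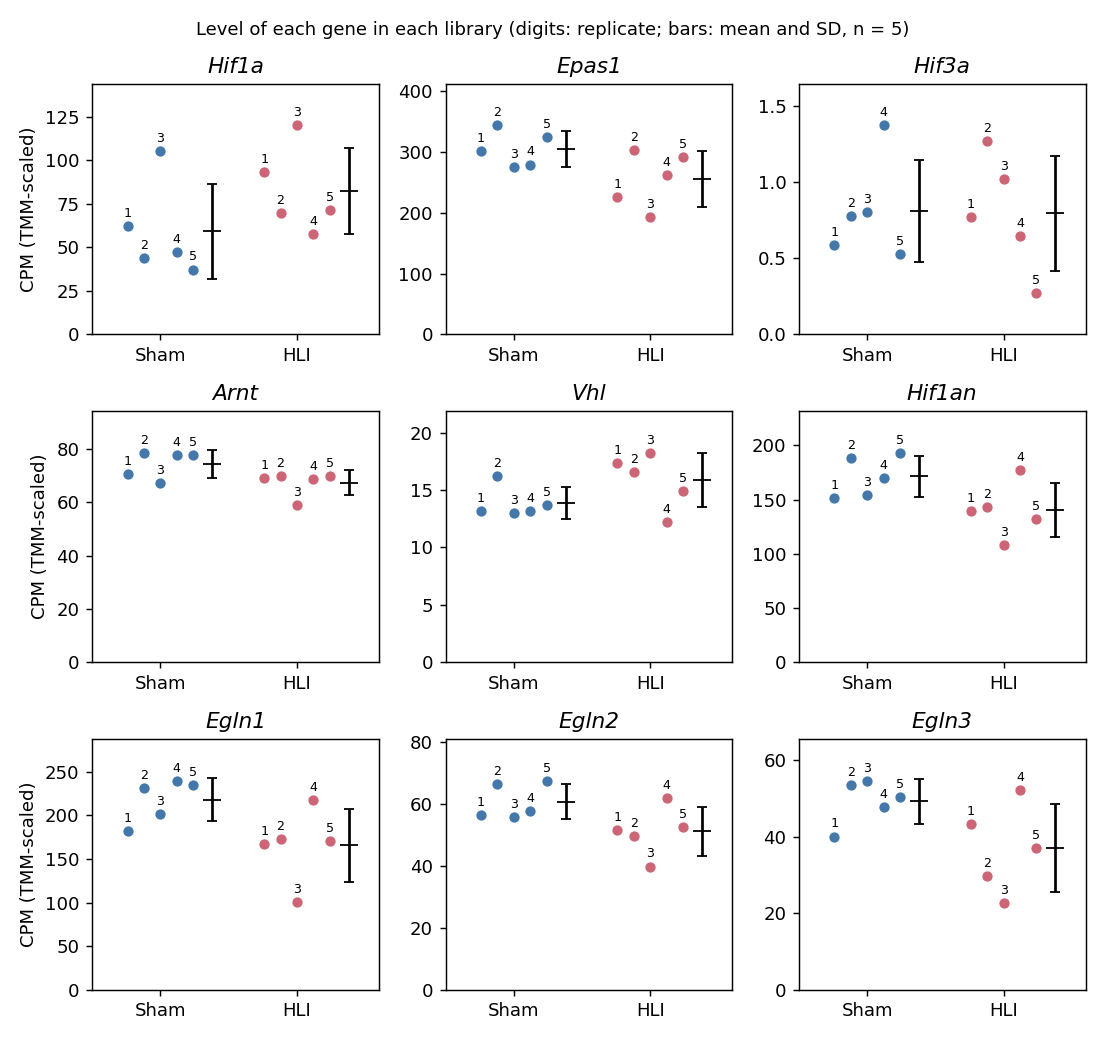
Level of each of the 9 genes in each of the 10 libraries, in CPM with TMM-scaled library sizes on a linear axis from 0 (points, numbered by replicate), with mean and SD of each group of 5. Every panel shows overlapping groups, with HLI replicate 3 the highest HLI library for Hif1a at 120 CPM and the lowest for Egln1 at 100.2 CPM.

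None of the 9 genes passed the test between HLI and Sham (quasi-likelihood test in edgeR, with p adjusted by Benjamini-Hochberg over 13404 genes), and the test called 0 of all genes, a background of 0%. DESeq2 called 36 of all genes and 0 of the 9, and limma on TPM 0 of either. Without adjustment, 1 of the 9, Egln1, had a p under 0.05 and was lower in HLI. The background of such genes was 16.9% of all (2262) in either direction and 6.15% with a lower value in HLI. The count of the 9 was 0 when Sham replicate 2, 4 or 5 or HLI replicate 2, 3 or 5 was left out, and 1, Egln3, when HLI replicate 1 was. It was 3 without Sham replicate 1 (Egln1, Egln3 and Hif1an) or replicate 3 (Hif1a, Egln1 and Hif1an), and 4 without HLI replicate 4 (Egln1, Egln2, Egln3 and Hif1an). Over all genes the count was 2355 of 13526 without HLI replicate 1. It was 2781 of 13531 without Sham replicate 1 and 2624 of 13511 without Sham replicate 3. It ran from 1160 of 13493, without HLI replicate 3, to 4181 of 13522, without HLI replicate 4. DESeq2 and TPM scaled by median of ratios each gave 3 of the 9 (Egln1, Egln3 and Hif1an), beside 2637 and 2202 of all genes. No filter on low counts gave 2 (Egln1 and Egln3) beside 2603 of 17430, and log2(TPM + 1) unscaled 0 beside 2538. In 0 of the 9 genes were the groups free of overlap, beside 1.65% of all genes. The median log2 fold change (HLI over Sham) was -0.25 for the 9 genes and 0.03 for all genes tested, and 7 of the 9 lay below 0, as did 6194 of the 13404. On unscaled TPM, 5 of the 9 lay below 0. The median of all genes on that scale was 0.19, and the single values on unscaled TPM below are to be read beside it.

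Among the alpha subunits, Hif1a had the largest log2 difference between the group means. In Sham replicates 1 to 5 it had 62.2, 44.0, 105, 47.4 and 37.3 CPM (counts per 1000000 counts of the library, TMM-scaled), and in HLI replicates 1 to 5 it had 93.4, 69.9, 120, 57.8 and 71.4 CPM. Every HLI library lay above Sham replicates 2, 4 and 5, whereas Sham replicate 3 lay above every HLI library but replicate 3. The log2 fold change was 0.48 (SE 0.28, 95% interval -0.14 to 1.09, edgeR adjusted p = 0.36), and it ran from 0.30 without HLI replicate 3 to 0.78 without Sham replicate 3. Unscaled TPM gave 0.70.

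Epas1, the alpha subunit known for its high level in endothelium, had 302, 344, 276, 280 and 325 CPM in Sham replicates 1 to 5 and 227, 303, 193, 263 and 292 CPM in HLI replicates 1 to 5. HLI replicates 1, 3 and 4 lay below the Sham range and the other two within it. The log2 fold change was -0.26 (SE 0.14, 95% interval -0.56 to 0.05, edgeR adjusted p = 0.33), and -0.17 without HLI replicate 3. On TPM without further scaling it was -0.07.

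Hif3a was close to the limit of detection, with between 5 and 24 counts per library. Its log2 fold change was -0.03 (SE 0.42, edgeR adjusted p = 0.97), and the interval of -0.95 to 0.88 leaves differences of either direction undetectable at this depth. Its sign changed with the scale and with single libraries, to 0.092 on unscaled TPM, 0.22 without Sham replicate 4, and 0.18 and 0.02 when HLI replicates 5 and 4 were left out. In HLI replicate 4 the count was 11 and the TPM 0.406, the highest of the 10 libraries, although Sham replicate 4 with 24 counts had 0.332 TPM. The transcript length implied by count and TPM, relative to the median of the gene over the libraries, was 0.41 in HLI replicate 4, 0.89 in HLI replicate 1, 0.93 in Sham replicate 3 and from 0.997 to 1.004 in the remaining 7. Of 620 genes with a mean count from 10 to 20, 11.9% had at least one library under 0.5 on this measure, so such a value is not rare at this depth. For the other 8 genes the TPM values and the counts gave nearly the same length in all libraries, with the lowest ratio at 0.95, for Arnt in HLI replicate 5.

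The share of each alpha subunit within a library does not depend on how libraries are scaled to each other. Hif1a made up 18.6 ± 7.70% (SD, n = 5) of the summed TPM of Hif1a, Epas1 and Hif3a in Sham and 28.0 ± 9.42% in HLI. In Sham replicates 1 to 5 the share of Hif1a was 19.7, 13.2, 31.3, 16.7 and 12.1%, and in HLI replicates 1 to 5 it was 32.8, 21.5, 42.4, 20.6 and 22.7%. Each HLI library lay above 4 of the 5 Sham libraries, and HLI replicates 1 and 3 above all 5. The remainder was nearly all Epas1, at 81.2 ± 7.71% and 71.8 ± 9.41%, and Hif3a stayed between 0.06 and 0.41% in the 10 libraries. The sum of the 3 alpha subunits was 116 ± 14.6 TPM in Sham and 125 ± 16.2 TPM in HLI, a difference smaller than the spread between libraries, and its ratio to Arnt was 3.43 ± 0.44 and 3.53 ± 0.30. These shares are given as a description, with no test, because the 9 genes were chosen with earlier results of these data known.

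**Figure D2:**
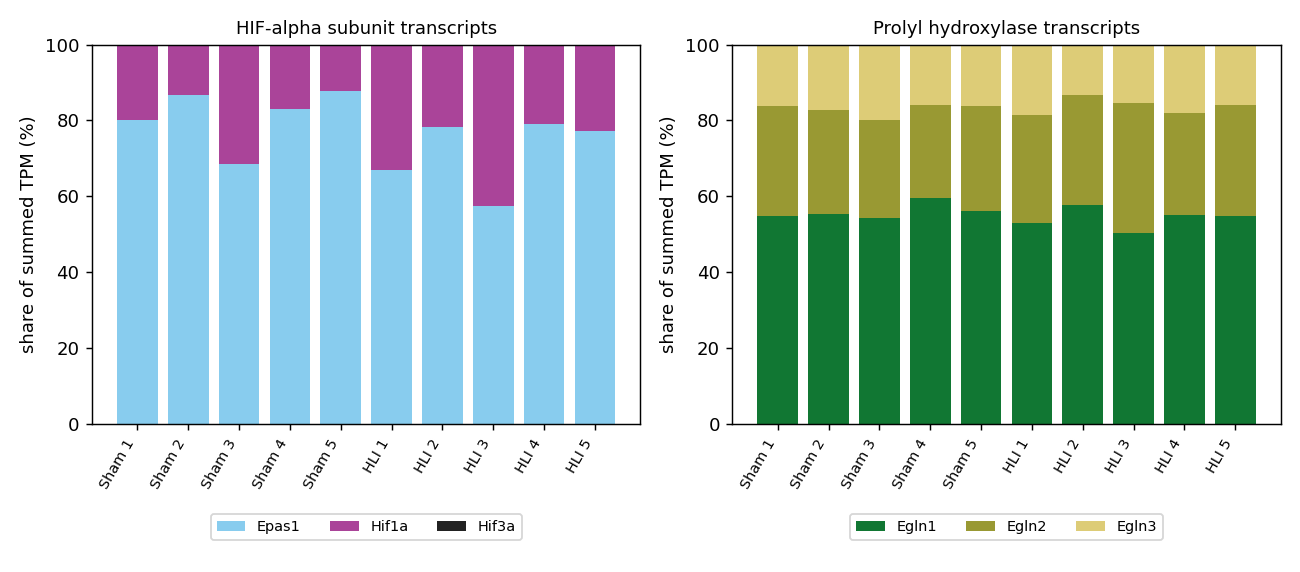
Share of each alpha subunit (left) and of each prolyl hydroxylase (right) in the summed TPM of its family, in percent, with 1 stacked bar for each library. Hif1a ranges from 12.1% of the alpha subunits in Sham replicate 5 to 42.4% in HLI replicate 3, whereas the prolyl hydroxylase shares vary less, with Egln1 between 50.3 and 59.4%, and Hif3a is too low to be seen.

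Arnt, the shared dimer partner, was the steadiest of the subunits. It had 70.5, 78.6, 67.2, 77.7 and 78.0 CPM in Sham replicates 1 to 5 and 69.2, 70.0, 59.1, 68.9 and 70.0 CPM in HLI replicates 1 to 5. The 4 HLI libraries other than replicate 3 lay within 68.9 to 70.0 CPM. On the log2 scale HLI differed from Sham by -0.14 (SE 0.09, 95% interval -0.35 to 0.06, edgeR adjusted p = 0.40), and unscaled TPM gave 0.061, on which scale all genes had a median of 0.19.

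The 3 prolyl hydroxylase genes had lower means in HLI, by amounts that did not pass the test. Egln1 had 182, 232, 202, 240 and 235 CPM in Sham replicates 1 to 5 and 167, 173, 100.2, 217 and 171 CPM in HLI replicates 1 to 5. All HLI libraries but replicate 4 lay below the Sham range. Its log2 fold change was -0.40 (SE 0.18, edgeR unadjusted p = 0.047, adjusted p = 0.29), and -0.26 without HLI replicate 3. On unscaled TPM it was -0.23.

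Egln3, the prolyl hydroxylase gene best known as a HIF target, had 40.1, 53.7, 54.7, 47.8 and 50.4 CPM in Sham replicates 1 to 5 and 43.3, 29.8, 22.7, 52.2 and 37.1 CPM in HLI replicates 1 to 5. HLI replicates 2, 3 and 5 lay below every Sham library, and HLI replicate 4 lay above 3 of them. The log2 fold change was -0.41 (SE 0.20, edgeR adjusted p = 0.30), from -0.58 without HLI replicate 4 to -0.28 without HLI replicate 3, and the 95% interval of -0.84 to 0.01 reaches just past 0. Unscaled TPM gave -0.25.

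Egln2 had between 55.6 and 67.4 CPM in Sham (median 57.7) and between 39.7 and 61.9 CPM in HLI (median 51.4). HLI replicate 4 was again the highest HLI library and the only one within the Sham range. The log2 fold change was -0.25 (SE 0.12, edgeR adjusted p = 0.31), and -0.05 on unscaled TPM. In TPM within a library, Egln1 made up 56.0 ± 2.03% of the prolyl hydroxylase transcripts in Sham and 54.2 ± 2.74% in HLI, Egln2 26.9 ± 1.71% and 29.6 ± 2.83%, and Egln3 17.1 ± 1.63% and 16.3 ± 2.09% (SD, n = 5). The differences in the shares of Egln1 and Egln3 were smaller than the SD of either group. That of Egln2 was larger than the SD of Sham and smaller than that of HLI. Its share lay above the Sham maximum of 28.94% in 3 of 5 HLI libraries, in replicate 2 only just at 28.96%, and within the Sham range in the others.

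Hif1an, the gene of the asparaginyl hydroxylase, followed the prolyl hydroxylases. It had between 152 and 193 CPM in Sham (median 170) and between 108 and 178 CPM in HLI (median 140). HLI replicate 4 was its highest HLI library and HLI replicate 3 its lowest. The log2 fold change was -0.29 (SE 0.14, 95% interval -0.59 to 0.01, edgeR adjusted p = 0.30), and -0.10 on unscaled TPM.

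Vhl, which with Hif1a was 1 of the 2 genes with a value above 0, had 13.2, 16.3, 13.0, 13.2 and 13.7 CPM in Sham replicates 1 to 5 and 17.4, 16.6, 18.2, 12.2 and 14.9 CPM in HLI replicates 1 to 5. HLI replicates 1, 2 and 3 lay above every Sham library and HLI replicate 4 below every one. HLI over Sham gave a log2 fold change of 0.19 (SE 0.13, 95% interval -0.09 to 0.48, edgeR adjusted p = 0.40), and unscaled TPM gave 0.35.

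**Figure D3:**
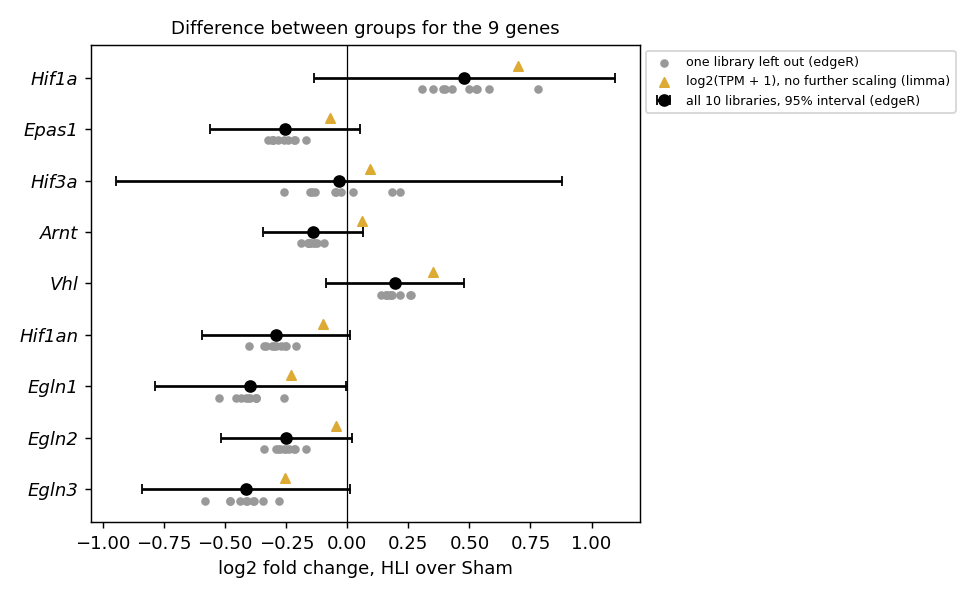
Log2 fold change of HLI over Sham for the 9 genes on the horizontal axis: edgeR estimate from all 10 libraries with its 95% interval (black), the edgeR estimate with each library left out in turn (grey), and the limma estimate on log2(TPM + 1) without further scaling (triangles). The interval of Egln1 alone excludes 0 before adjustment. The triangles lie to the right of the black points for all 9 genes, on a scale where the median of all genes was 0.19, against 0.03 in edgeR.

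The balance of hydroxylase to substrate transcripts, taken within each library, spanned a wide range. The summed prolyl hydroxylases were 1.35, 1.62, 1.42, 1.84 and 1.74 times the summed alpha subunits in Sham replicates 1 to 5, and 1.43, 1.19, 0.91, 1.81 and 1.27 times in HLI replicates 1 to 5. HLI replicates 2, 3 and 5 lay below the Sham range, and HLI replicate 4 near its top. Egln1 alone was 8.04 times Hif1a in Sham replicate 5 and 1.08 times in HLI replicate 3. The ratio of Vhl to Hif1a ran the same way in the mean, at 0.45 ± 0.17 in Sham and 0.33 ± 0.05 in HLI (SD, n = 5), although all HLI libraries lay within the Sham range.

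In bulk tissue, fewer cells of a type and less RNA per cell cannot be told apart, and summed markers of cell types also varied across libraries. The 14 monocyte and macrophage markers, all of them above 0 in every library, summed to 738 to 2103 TPM in Sham and to 983 to 5218 TPM in HLI. The libraries with the most Hif1a in TPM, HLI replicate 3 at 60.6, Sham replicate 3 at 40.8 and HLI replicate 1 at 39.9, had 5218, 1789 and 4838 TPM of these markers. The libraries with the least Hif1a, Sham replicates 5, 4 and 2, had 738, 1036 and 937 TPM. In Sham replicate 3, which had less of these markers than Sham replicate 1 with 2103 TPM, the 10 neutrophil markers summed to 138 TPM, against 9.57 to 32.9 TPM in the other Sham libraries. They summed to 168 TPM in HLI replicate 1 and to 8.23 to 41.1 TPM in the other HLI libraries, with 28.3 TPM in HLI replicate 3. The neutrophil markers S100a8, Ly6g and Ngp were at 0 in some libraries. Erythroid genes summed to 5553, 3347 and 9611 TPM in HLI replicate 3, Sham replicate 3 and HLI replicate 1. In Sham replicates 5, 4 and 2 they summed to 1565, 1320 and 1410 TPM.

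Epas1, Arnt, Hif1an and all 3 prolyl hydroxylase genes were lowest in CPM in HLI replicate 3, the library with the least fast fibre markers and the largest TMM factor. In TPM, the unit of the markers, Egln1, Egln3 and Hif1an were again lowest there, whereas Epas1 and Egln2 were lowest in Sham replicate 4 and Arnt in HLI replicate 4. These markers summed to 84273 TPM in that library, 115150 to 142550 TPM in the other HLI libraries and 125400 to 167020 TPM in Sham. The 9 slow fibre markers, all above 0, summed to 1523 to 3268 TPM in HLI and 2765 to 3848 TPM in Sham. The 14 endothelial markers, all above 0, summed to 662 to 1170 TPM in Sham and 840 to 1271 TPM in HLI, while Epas1 had 78.5 to 106 TPM and 79.0 to 103 TPM. The 8 markers of myogenic progenitors and new fibres, all above 0, summed to 1065 TPM in HLI replicate 3 and to 173 TPM in Sham replicate 1. The part of these cell types in the values of the 9 genes was not tested.

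**Figure D4:**
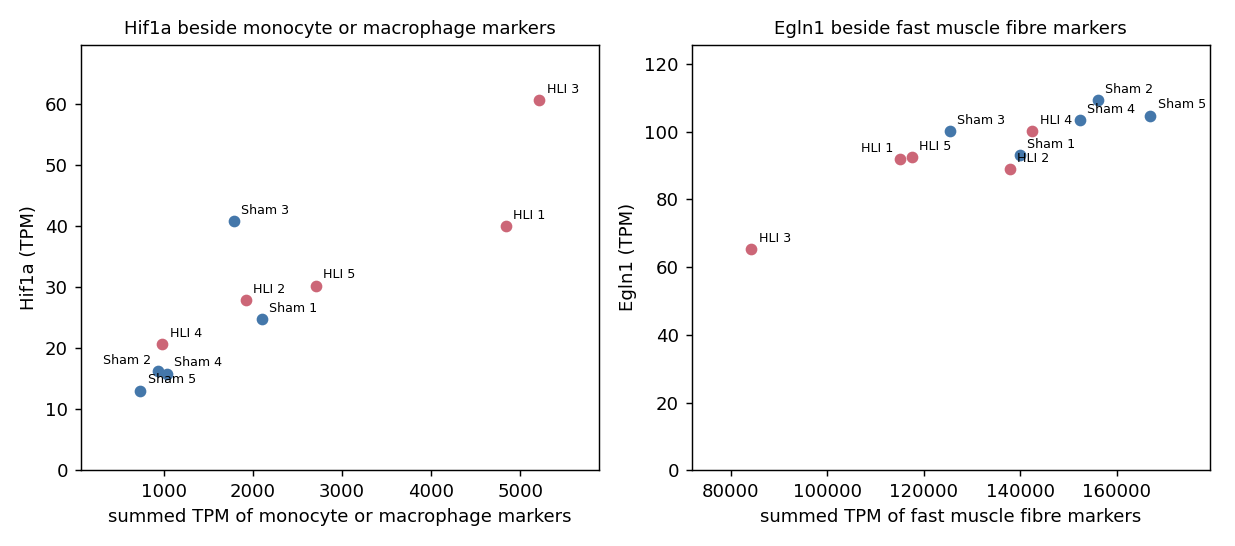
Hif1a in TPM against the summed TPM of 14 monocyte and macrophage markers (left) and Egln1 in TPM against the summed TPM of 14 fast fibre markers (right), with 1 point for each library. HLI replicate 3 has the highest Hif1a, 60.6 TPM, and the lowest fast fibre sum, 84273 TPM, and Sham replicate 3 has more Hif1a than other libraries with a like macrophage sum.

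How strongly the 9 genes varied together depended on the scaling between libraries. On log2 CPM with TMM scaling, 19 of 36 pairs had a correlation over the 10 samples that passed (permutation test of Pearson's r, Benjamini-Hochberg adjusted over 36 pairs), 13 of them positive and 6 negative. Fewer pairs passed by Spearman's rho on CPM, and Hif1a with Epas1 was among those that did not (permutation test, adjusted p = 0.079). On log2(TPM + 1) as deposited, 0 of 36 pairs passed. Between the scales the sign of r changed for Arnt with Hif1a, Vhl, Egln1, Egln3 and Hif1an, and not with Epas1, Egln2 and Hif3a. With Hif1a it was -0.90 on CPM (permutation p = 0.00038, adjusted p = 0.0034, Spearman's rho -0.87 with permutation p = 0.0026) and -0.84 without the 2 samples farthest from the median of Hif1a, but 0.34 on TPM (permutation p = 0.34).

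The negative relation of Hif1a and Egln1 had nearly the same size on both scales. On CPM Pearson's r was -0.79 (permutation p = 0.0029, adjusted p = 0.0081) and Spearman's rho -0.84 (permutation p = 0.0041). On TPM Pearson's r was -0.80 (permutation p = 0.0025, adjusted p = 0.057) and Spearman's rho -0.75 (permutation p = 0.017, adjusted p = 0.18). Without the 2 samples farthest from the median of Hif1a, r was -0.67 on CPM and -0.63 on TPM, and for deviations from the group means it was -0.70 on both. Vhl and Egln1 were negatively related on both scales too. Their Pearson's r was -0.67 on CPM (permutation p = 0.021, adjusted p = 0.039) and -0.81 on TPM (permutation p = 0.0053, adjusted p = 0.057). Without the 2 samples farthest from the median of Vhl, it was -0.30 and -0.50. With 5 samples a group, a correlation within Sham or HLI alone was not computed.

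All 6 pairs among the 4 hydroxylase genes passed on CPM by Pearson's r, with an r of 0.85 to 0.97, and 0 passed on TPM, with an r of 0.48 to 0.79. By Spearman's rho on CPM, Egln3 did not pass with Egln1 or Egln2 (permutation test, adjusted p = 0.10 and 0.074). Egln2 and Hif1an had an r of 0.97 on CPM (permutation p = 2e-05, adjusted p = 0.00072, rho 0.94 with permutation p = 0.00019), and of 0.92 without the 2 samples farthest from the median of Egln2. On TPM r was 0.79 (permutation p = 0.0063, adjusted p = 0.057, rho 0.65 with permutation p = 0.048), and 0.71 without those farthest on that scale. Egln1 and Egln3 had an r of 0.89 on CPM (permutation p = 0.0012, adjusted p = 0.0074, rho 0.68 with permutation p = 0.034) and 0.77 without the 2 samples farthest from the median of Egln1. On TPM it was 0.77 (permutation p = 0.0041, adjusted p = 0.057, rho 0.70 with permutation p = 0.031) and 0.56 without the farthest. Egln1 and Egln2 went from an r of 0.94 on CPM (permutation p = 0.00032, adjusted p = 0.0034, rho 0.88 with permutation p = 0.0016) to 0.48 on TPM (permutation p = 0.17, adjusted p = 0.36, rho 0.44 with permutation p = 0.20), and to 0.050 there without the 2 samples farthest from the median of Egln1. Vhl and Hif1a, which did not pass on CPM at r = 0.42 (permutation p = 0.22, adjusted p = 0.31, rho 0.33 with permutation p = 0.35), had an r of 0.75 on TPM (permutation p = 0.014, adjusted p = 0.099, rho 0.68 with permutation p = 0.034).

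**Figure D5:**
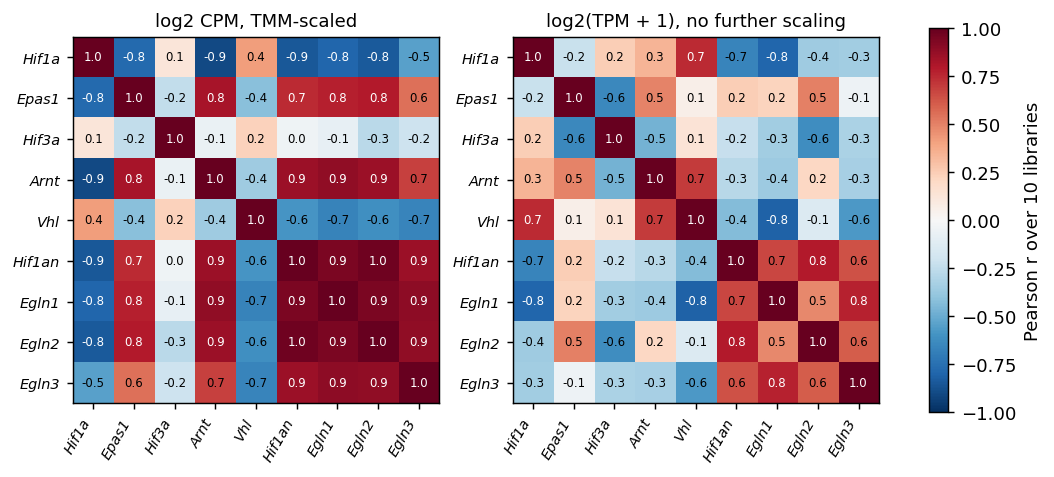
Pearson's r between each pair of the 9 genes over the 10 libraries, on log2 CPM with TMM scaling (left) and on log2(TPM + 1) as deposited (right), on a colour scale from -1 to 1. Epas1 and Arnt have an r of 0.55 to 0.89 with the 4 hydroxylase genes on the left and of -0.36 to 0.50 on the right, whereas Hif1a and Egln1 have -0.79 and -0.80.

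Among 12921 genes with a mean of at least 1 CPM, those with a pattern over the 10 libraries most like each gene were named by Pearson's r of log2 CPM, as a description. For Hif1a these were Eml4 (r = 0.97), which encodes a microtubule-binding protein, Msr1 (r = 0.97), a macrophage scavenger receptor, and Plod2 (r = 0.97), a collagen lysyl hydroxylase and HIF target, and r was 0.98, 0.96 and 0.98 on log2(TPM + 1). For Egln1 they were Ptp4a3, a phosphatase, Vdac3, a mitochondrial outer membrane channel, and Smco1 (r = 0.9985, 0.9970 and 0.9961), and r was 0.99, 0.99 and 0.98 on TPM. For Vhl they were Galm, a sugar epimerase, Npdc1 and Zmat3 (r = 0.93, 0.91 and 0.91), and r was 0.96, 0.97 and 0.97 on TPM.

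The nearest genes of the other members depended more on the scale. Epas1 was most like Tmem150c, Herc2 and Tmem223 (r = 0.98, 0.97 and 0.96), with 0.51, 0.70 and 0.88 on TPM, and Arnt most like Cst3, which encodes cystatin C, Snrpb and Gabarapl2 (r = 0.99, 0.97 and 0.97), with 0.62, 0.54 and 0.53 on TPM. Egln2 was most like Sun2, Rab11fip3 and Fem1a (r = 0.99 for each, and 0.81, 0.79 and 0.79 on TPM), and Egln3 most like Rufy1, Metap1 and Pla2g6 (r = 0.99, 0.98 and 0.98, and 0.78, 0.80 and 0.87 on TPM). Hif1an was most like Lrrc30, Fzd7 and Cers1, a ceramide synthase (r = 0.995, 0.993 and 0.991, and 0.87, 0.90 and 0.95 on TPM). Hif3a had no gene above an r of 0.81, that of Hps6, followed by Tasp1 and Grk3 at 0.79.

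Other genes of the pathway were described from 6 lists. Of 12 genes listed as partners of VHL, among them the elongins, the cullin and the ubiquitin-conjugating enzymes of its ligase, 0 passed the edgeR test. Of these genes 0 had an unadjusted p under 0.05, and the median log2 fold change was -0.05. The ring subunit Rbx1 had a mean of 63.1 ± 5.33 in Sham against 53.4 ± 9.27 CPM in HLI (SD, n = 5), and the ubiquitin-conjugating enzyme genes Ube2d1 and Ube2d3 had log2 fold changes of -0.36 and -0.18. The scaffold Cul2 and the elongins Eloc and Elob had -0.06, -0.04 and -0.25. The adjusted p of these 6 genes lay between 0.33 and 0.88.

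Of 28 genes listed for HIF-alpha turnover by routes other than prolyl hydroxylation, 0 passed and 6 had an unadjusted p under 0.05, 4 higher and 2 lower in HLI, with a median log2 fold change of 0.03. Usp8, which encodes a deubiquitinase, had 31.5 ± 5.77 CPM in Sham against 42.2 ± 6.85 CPM in HLI (SD, n = 5, edgeR adjusted p = 0.29). The helicase subunit gene Mcm7 had 13.9 ± 1.84 and 20.1 ± 6.23 CPM, and Os9, whose product is also described as a promoter of prolyl hydroxylation and which the next list holds too, 43.1 ± 6.37 and 57.7 ± 11.7 CPM. The chaperone gene Hsp90aa1 had a log2 fold change of 0.38 (SE 0.32) and its paralogue Hsp90ab1 one of -0.18 (SE 0.12). Rack1, whose product competes with HSP90 for HIF-1α, had -0.04 (SE 0.13), and the ubiquitin ligase gene Stub1 -0.11 (SE 0.11).

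Of 18 regulators, scaffolds and cosubstrate enzymes of the prolyl hydroxylases, which use α-ketoglutarate and iron, 0 passed and 2 had an unadjusted p under 0.05. These were Os9, counted in both lists, and Idh2, the mitochondrial enzyme that makes α-ketoglutarate, with 263 ± 36.6 CPM in Sham against 194 ± 49.8 CPM in HLI. D2hgdh, which removes a competitor of α-ketoglutarate, had 23.7 ± 1.72 and 19.1 ± 3.96 CPM. The median log2 fold change of the list was -0.02.

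Of 18 measured coactivators, corepressors and dimer partners, 0 passed, 3 had an unadjusted p under 0.05, and the median log2 fold change was -0.09. Jmjd6, which encodes an oxygenase of the Jumonji family, had 21.8 ± 1.17 CPM in Sham against 17.5 ± 1.32 CPM in HLI (SD, n = 5). Its HLI values were all lower than its Sham values, as in 0.873% of all genes tested (edgeR adjusted p = 0.29). The histone demethylase gene Kdm4c had 15.9 ± 2.02 and 20.7 ± 2.92 CPM, and the clock gene Bmal1, a relative of Arnt, 48.7 ± 5.48 and 38.3 ± 7.35 CPM. The log2 fold changes of the coactivators Ep300 and Crebbp were -0.02 (SE 0.10) and 0.06 (SE 0.10), that of Cited2, which competes with HIF-alpha for them, -0.08 (SE 0.10), and that of Arnt2 -0.38 (SE 0.21).

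Of 15 regulators of HIF mRNA and its translation, 0 passed and 1, the NF-κB kinase gene Ikbkb, had an unadjusted p under 0.05, with 24.7 ± 1.65 CPM in Sham against 29.7 ± 2.59 CPM in HLI. Mtor, of the growth pathway that promotes HIF-1α translation, had a value of -0.23 (SE 0.11) on the log2 scale. Tsc2, whose product restrains that pathway, had -0.30 (SE 0.14), and the median of the list was 0.07. Of 29 measured HIF target genes, 0 passed, 2 with an unadjusted p under 0.05 were higher and 2 lower in HLI, and 19 lay below 0, with a median of -0.18. Those with the smallest p were Pfkfb3, Mxi1 and Ddit4, with log2 fold changes of -0.71, -0.29 and 0.90 (edgeR adjusted p = 0.29 for each). Plod2, named above for its likeness to Hif1a, had 11.5 ± 7.41 and 23.6 ± 15.1 CPM. Against the background of 16.9% of all genes with an unadjusted p under 0.05, the 6 lists held 0 of 12, 6 of 28, 2 of 18, 3 of 18, 1 of 15 and 4 of 29.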

How the data were processed

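Poly(A) RNA of gastrocnemius muscle was sequenced as paired-end Illumina libraries, per the labels' protocols. There were 5 Sham and 5 HLI samples, grouped by their titles. The series text speaks of cells and the sample protocol of adipose material, so the extraction is uncertain. Per the submitters' processing notes the tools were Bowtie 0.12.2 and HISAT2 2.0 and the build mm8, with no role stated. How reads were counted, and with which annotation and strand setting, is not given in the sources used here.

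The authors deposited 1 table of 21956 genes with columns of estimated counts and of TPM for each sample, per the file headers. The authors' estimated counts carry no normalization, 93.4% are whole, and all were rounded. The deposited TPM values sum to 1000000 per library. Library totals of the counts were 16556385 to 22136299, and no 2 libraries were identical.

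The test was edgeR 4.0.16 (quasi-likelihood) under R 4.3.3, with TMM scaling, no covariate and genes kept by filterByExpr (count minimum 10, total minimum 15), which left 13404 genes. The threshold was an adjusted p of 0.05 (Benjamini-Hochberg over all of them). Standard errors were taken from the fold change and the F statistic, and 95% intervals from these. CPM uses TMM-scaled library sizes. Correlations used log2 CPM with a prior count of 2 and 100000 permutations, two-sided. The edgeR and permutation steps were tested on simulated data.

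The members and lists were chosen with earlier results of these data known. The named genes are the 9 members, 14 fixed pathway genes, the 3 genes of each pathway list with the smallest p, and the 3 genes most like each member; Plod2 is named as one of the last. Of the fixed genes, Vegfa had a log2 fold change of -0.17 and Fgf13 one of -0.20 (edgeR adjusted p = 0.67 and 0.54).

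The alternatives comprised a block for the replicate number, each library left out, all genes with a count in place of the filter, size factors of DESeq2, DESeq2 1.42.0 itself, a robust prior, and limma 3.58.1 on log2(TPM + 1), log2(TPM + 0.1) and TPM scaled by median of ratios. Correlations of deviations from group means, and the use of counts beside TPM for Hif3a, were chosen after seeing the data.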

Additional observations from a re-analysis of the deposited data

Results flagged for a closer look

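Of 106 groups of 5 libraries examined, 13 held a library far from the other 4, by Dixon's test at 95%. This count has no chance rate beside it, because the groups share genes and libraries. Some groups of implied lengths had no spread after rounding and could not be flagged. Among the 9 genes, Arnt was low in HLI replicate 3, at 59.1 CPM against 68.9 to 70.0 CPM in the other HLI libraries. Vhl was high in Sham replicate 2, at 16.3 CPM against 13.0 to 13.7 CPM. The share of Hif3a in the alpha subunits was high in Sham replicate 4, at 0.351% against 0.124 to 0.185%. The length implied for Hif3a, relative to its median, was low in HLI replicate 4, at 0.411 against 0.89 to 1.002, and in Sham replicate 3, at 0.932 against 0.999 to 1.004.

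Among the marker lists, myogenic progenitor and new fibre markers were high in Sham replicate 1, at 173 TPM against 42.3 to 64.5 TPM, and in HLI replicate 3, at 1065 TPM against 91.8 to 196 TPM. Neutrophil markers were high in Sham replicate 3, at 138 TPM, and in HLI replicate 1, at 168 TPM. Lymphocyte and NK cell markers were high in Sham replicate 1, at 13.6 TPM against 3.43 to 6.26 TPM, and in HLI replicate 3, at 36.4 TPM against 8.48 to 14.9 TPM. Markers of fibro-adipogenic progenitors were high in Sham replicate 1, at 5650 TPM against 4249 to 4525 TPM, and erythroid genes in Sham replicate 3, at 3347 TPM against 1320 to 1885 TPM.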

How the results depend on the processing

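Under each of the 18 alternatives 0 of the 9 genes and 0 genes of the pathway lists were called. Over the whole table DESeq2 called 36 genes, and the other alternatives called 0. Hif1a and Vhl kept values above 0, and Epas1, Egln1, Egln2, Egln3 and Hif1an values below 0, in all 18. With single libraries left out Hif3a ran from -0.26 to 0.22, and was above 0 when Sham 4, HLI 4 (0.02) or HLI 5 (0.18) was the one left out. It was 0.092 on log2(TPM + 1), 0.29 on log2(TPM + 0.1) and, after median-of-ratios scaling of TPM, 0.051. Arnt turned to 0.061 and 0.063 on the unscaled TPM scales, where the median of all genes was 0.19 and 0.21. After median-of-ratios scaling of TPM that median was 0.005. On the scaled values Hif1a had 0.49, Vhl 0.16, Arnt -0.15, Epas1 -0.28, Egln1 -0.44, Egln2 -0.26, Egln3 -0.46 and Hif1an -0.31. The count of pairs correlated by Pearson's r was 19 on CPM and 0 on unscaled TPM, and the cause was not tested. The adjusted p of single genes went as low as 0.086, for Egln3 without HLI replicate 4. The log2 difference of the ratio of Hif1a to Epas1 was 0.80, and from 0.56 without HLI replicate 3 to 1.07 without Sham replicate 3.

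The replicate numbers were not taken to pair the samples: the correlation of same-numbered deviations lay between -0.01 and 0.28, with 3 of 5 above 0.1, and 0 of 5 HLI samples matched its own number best. With the replicate number as a block 0 genes were called, and genes with an unadjusted p under 0.05 went from 2262 to 2986, and among the 9 from 1 to 4 (Hif1a, Epas1, Egln1 and Hif1an). The log2 fold change of Hif1a was then 0.53 (SE 0.13, edgeR adjusted p = 0.13). With 5 libraries a group, the 95% intervals of 8 of the 9 genes, all but Egln1, include 0, and the low counts of Hif3a limit it most.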

Other observations

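Other cell types were given by their markers beside the 9 genes, as summed TPM. Markers of fibro-adipogenic progenitors, all 10 above 0 in every library, ran from 4249 to 5650 TPM in Sham and from 2926 to 11035 TPM in HLI. In HLI the lowest sum was in replicate 4 and the highest in replicate 3, the libraries with the least and the most Hif1a of that group. In Sham the lowest sum was in replicate 3, which had the most Hif1a of Sham, and the highest in replicate 1. The 10 pericyte and smooth muscle markers, all above 0, ran from 569 to 695 TPM in Sham and from 587 to 1025 TPM in HLI. The 8 adipocyte markers, all above 0, ran from 1271 to 1671 TPM and from 809 to 1935 TPM, the 6 erythroid genes, all above 0, from 1320 to 3347 TPM and from 1549 to 9611 TPM, and the 8 Schwann cell markers, all above 0, from 358 to 946 TPM and from 345 to 735 TPM. The part of these cell types in the values of the 9 genes was not tested.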
